A study of Mus musculus with 22 samples.

Results

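The Tie1, Tek and Angpt2 loci were described from ATAC-seq peaks of endothelial cells sorted from mouse retina at postnatal day 6. Members were the peaks whose midpoint lay in a window around each gene in mm9, chr4:118090000-118220000 for Tie1 (130 kb), chr4:94340000-94590000 for Tek (250 kb) and chr8:18630000-18850000 for Angpt2 (220 kb). The windows held 88 peaks, 46 of 49558 in the gTKO list and 42 of 57267 in the control list, counting chromosomes 1 to 19, X and Y.

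The gTKO pups were S1pr3-/- S1pr1flox/flox S1pr2flox/flox with Rosa26-CreERT2, and the control pups had the same alleles without the recombinase, all on a C57BL/6 background. S1pr1, S1pr2 and S1pr3 encode receptors for the lipid sphingosine 1-phosphate, and S1pr3 was thus missing in both genotypes. Both genotypes were injected with 100 µg tamoxifen from postnatal day 1 to 3, which activates the recombinase in gTKO pups. Rosa26 is active in most cell types, so deletion was not restricted to endothelium, and the deletion and the presence of CreERT2 cannot be told apart. Each of the 3 gTKO and 3 control libraries pooled the retinas of 4 to 6 pups. The labels call the sorted cells adult, although the stated age is postnatal day 6.

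In ATAC-seq, the Tn5 transposase tags accessible DNA, and a peak is a stretch called as enriched for its cuts. The authors deposited 1 peak list per genotype, with positions and no height, fold or p-value. There is no replicate error, no test between genotypes was possible, and the read depth is unknown. A list made from fewer reads would hold fewer and narrower peaks. Across the placed chromosomes the gTKO list covered 24.2 Mb and the control list 31.4 Mb, a ratio of 0.771, and the ratio of the numbers of peaks was 0.865. A peak counted as shared if at least 1 bp of it overlapped a peak of the other list. Of all gTKO peaks 9.75% had no control partner, and of all control peaks 27.0% had no gTKO partner. These whole-list shares are the background for the counts below.

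Tek and Tie1 are receptor tyrosine kinases of endothelial cells. Angpt1 activates Tek and keeps vessels quiescent, while Angpt2, which endothelial cells release themselves, can block or weakly activate Tek depending on context. Tie1 has no well-established angiopoietin ligand of its own and modifies signalling through Tek. In the growing retina Angpt2 is known for its expression at the sprouting front and its part in vessel remodelling. All 3 windows held peaks in both lists, and peaks were not assigned to gene starts, since no annotation of the mm9 build was used. In the order of coding genes of RefSeq GRCm38.p6, Tek lies between Ift74 and Eqtn. Angpt2 lies within the span of Mcph1, with Csmd1 next to it on its lower side and Agpat5 on its upper side. The neighbours of Tie1 were not looked up. Peaks in any of the windows may belong to neighbouring genes.

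The promoters of both receptors are shown because AP-1 and endothelial factor motifs were sought in them. They come from RefSeq (GRCm38.p6), run from 250 bases before to 50 bases after the annotated start, and matched 2 of the 3 genes. Tie1 is given from chr4:118489800-118490099 on the minus strand and Tek from chr4:94739039-94739338 on the plus strand. These positions belong to another build than the peaks and cannot be set beside them.
Tie1: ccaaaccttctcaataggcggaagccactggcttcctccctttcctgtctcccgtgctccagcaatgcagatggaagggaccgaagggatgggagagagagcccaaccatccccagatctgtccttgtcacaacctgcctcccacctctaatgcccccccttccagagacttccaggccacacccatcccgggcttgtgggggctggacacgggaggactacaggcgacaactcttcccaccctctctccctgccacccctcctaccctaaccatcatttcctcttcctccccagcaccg
Tek: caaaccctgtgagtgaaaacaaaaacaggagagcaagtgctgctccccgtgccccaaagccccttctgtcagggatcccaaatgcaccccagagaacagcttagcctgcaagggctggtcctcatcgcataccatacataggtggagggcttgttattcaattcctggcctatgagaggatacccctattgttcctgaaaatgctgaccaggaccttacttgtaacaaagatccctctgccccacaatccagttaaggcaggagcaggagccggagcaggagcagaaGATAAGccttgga

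Capitals mark the single match in these windows, GATAAG for GATA factors, which starts 38 bases into the annotated Tek transcript. Of 32851 promoter windows of this length in the table, 7.44% hold that string on either strand. The strings TGACTCA for AP-1 (in 5.20% of windows), TGTTTAC for forkhead factors (3.65%) and TGTTTGC for forkhead factors (5.07%) had no match in either promoter. CAGGAAG for ETS factors (13.3%), CCGGAAG for ETS factors (8.86%) and CACGTG, an E-box (7.15%), had none either. Both strands were searched, and no match says only that these letters are not in these windows. GC content was 60.3% at Tie1 and 52.0% at Tek, against a median of 52.7% over all windows.

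The loci of the receptors and of the ligand differed in how the peak counts compared. At Tie1 both lists held 8 peaks. At Tek the gTKO list held 12 peaks and the control list 16, and at Angpt2 the gTKO list held 26 and the control list 18. With all peaks, the gTKO list thus held as many or fewer peaks at the receptor genes and more at Angpt2. At Tek this turned to 9 gTKO and 7 control peaks with peaks of at least 300 bp. At Tie1 there were 8 gTKO and 7 control peaks with the control list cut to its widest peaks, as many as in the gTKO list. That cut removes control peaks only, so it could move the numbers in 1 direction only. With peaks of at least 300 bp Tie1 had 4 gTKO and 5 control peaks. With its window extended by 50 kb it had 9 gTKO and 11 control peaks, and with the window cut by 25 kb 4 of each. With all peaks, the covered sequence was lower in the gTKO list at the receptor genes and higher at Angpt2. It was 4598 bp in the gTKO list and 5909 bp in the control list at Tie1, a ratio of 0.778, and 4887 bp and 6332 bp at Tek, a ratio of 0.772. Both ratios were close to that of the whole lists. At Angpt2 the gTKO list covered 10329 bp and the control list 9365 bp, a ratio of 1.10. Peaks with no partner made up 2196 bp of this in the gTKO list and 397 bp in the control list. These differences between loci were not tested. For comparison, placed chromosomes were divided into consecutive stretches of the size of each window, keeping those with 10 or more peaks in the 2 lists together. The gTKO list held more peaks than the control list in 22.1% of 3821 stretches of 130 kb, 21.4% of 3611 of 250 kb and 20.6% of 3722 of 220 kb.

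**Figure D1:**
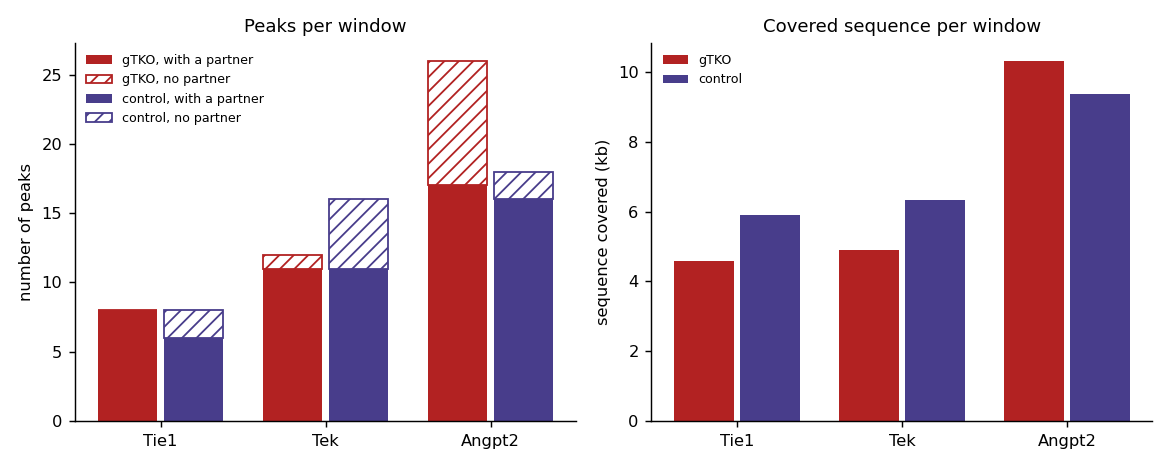
Number of peaks (left) and covered sequence in kb (right) per window, with the gTKO list in red left of the control list in blue; hatched parts are peaks with no partner in the other list. Angpt2 has 26 gTKO and 18 control peaks, of which 9 and 2 have no partner.

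At the Tie1 locus every gTKO peak overlapped a control peak. None of the 8 gTKO peaks was particular to that list, compatible with shares up to 36.9% by the exact interval and 37.5% by a floor of 3 counts, and 2 of the 8 control peaks were (25.0%, exact 95% Clopper-Pearson interval 3.19 to 65.1%, for counting error only). With 50% of both peaks required to be covered, 3 peaks of each list had no partner. The widest peak measured 1257 bp in the gTKO list and 1366 bp in the control list, where it lay at chr4:118109405-118110770. The next, at chr4:118100095-118101352 in the control list, was 967 bp wide in the gTKO list and 1258 bp in the control list. Both lists thus had the same leading peaks, drawn in at the ends in the gTKO list. At chr4:118118445-118119247 the width was 543 bp in the gTKO list against 803 bp in the control list, a ratio of 0.676, the lowest of this locus. At chr4:118178221-118178470 it was 280 bp in the gTKO list against 250 bp in the control list, a ratio of 1.12 and the single pair of the locus that was wider in the gTKO list.

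Both remaining shared Tie1 sites were single peaks in the control list and broken in the gTKO list. The control peak at chr4:118161946-118163124 (1179 bp) contained gTKO peaks of 870 and 181 bp, 21 bp apart, which covered 89.1% of it. The control peak at chr4:118215833-118216529 (697 bp) contained gTKO peaks of 231 and 269 bp, 154 bp apart, covering 71.7%. With these breaks the lists reached equal numbers of peaks at Tie1, with less sequence in the gTKO list. The control-only peaks were narrow, 200 bp at chr4:118172827-118173026 and 156 bp at chr4:118216691-118216846, and the second lay 203 bp from a gTKO peak. Among all control peaks, those of 150 to 199 bp had no partner in 66.4% of cases and those of 200 to 299 bp in 38.5%. Had each Tie1 peak taken the whole-list share of its width class, 0.669 gTKO-only and 1.55 control-only peaks would be counted.

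**Figure D2:**
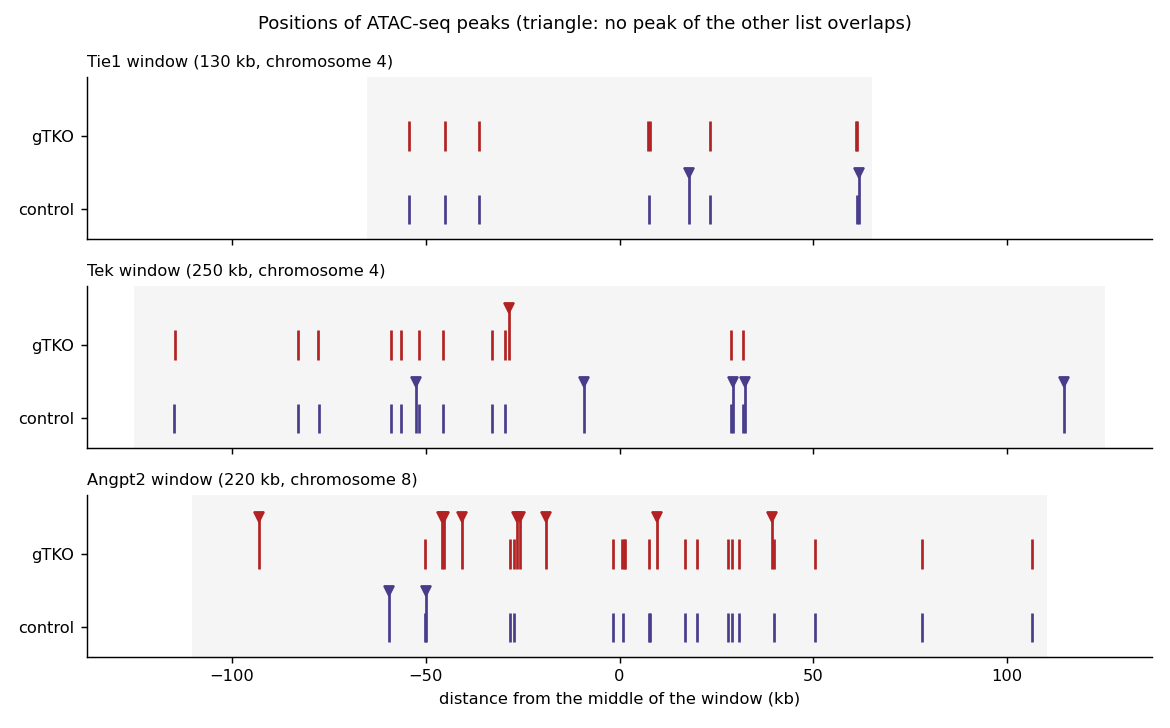
Peak positions in the 3 windows as distance from the middle of the window in kb, with the gTKO list above the control list on a grey background that marks the window; each line is a peak, and triangles mark peaks that no peak of the other list overlaps. At Angpt2, 9 gTKO and 2 control peaks carry a triangle.

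At the Tek locus, 11 sites were shared 1 to 1, and peaks of one list only lay mainly in the control list. One of the 12 gTKO peaks had no partner (8.33%, interval 0.211 to 38.5%), as had 5 of the 16 control peaks (31.2%, interval 11.0 to 58.7%). Both shares were near those of the whole lists, and the width classes gave 0.876 gTKO-only and 5.25 control-only peaks. The gTKO-only peak was 300 bp wide, at chr4:94436233-94436532, and lay 594 bp from the nearest control peak. The control-only peaks were 208 bp (chr4:94412512-94412719), 198 bp (chr4:94497402-94497599), 169 bp (chr4:94579684-94579852), 152 bp (chr4:94455659-94455810) and 150 bp wide (chr4:94494144-94494293). Of these 5, 3 lay within 300 bp of a gTKO peak, at the sides of wider shared peaks, while the peaks of 152 and 169 bp lay 19.1 and 65.6 kb from any gTKO peak.

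The widest shared Tek peaks were narrower in the gTKO list. At chr4:94496462-94497339 the width was 616 bp in the gTKO list and 878 bp in the control list, a ratio of 0.702. At chr4:94412849-94413650 it was 679 and 802 bp (gTKO and control), and at chr4:94493336-94494130 573 and 795 bp (gTKO and control). At chr4:94405549-94406306 the gTKO peak measured 565 bp and the control peak 758 bp, with its start 199 bp further in and its end 6 bp further out in the gTKO list. These 4 were the only peaks of 500 bp or more at Tek in either list. The lowest ratio, 0.341, was at chr4:94349871-94350310, with 150 bp in the gTKO list and 440 bp in the control list. Among the narrower shared Tek peaks both directions occurred. At chr4:94419250-94419547 the gTKO peak was 472 bp and the control peak 298 bp wide, a ratio of 1.58, and at chr4:94435342-94435638 the widths were 371 bp in the gTKO list and 297 bp in the control list. At chr4:94408563-94408797 they were 282 bp in the gTKO list and 235 bp in the control list. These 3 pairs and the gTKO-only peak lay between chr4:94408553 and 94436532, together with 2 pairs that were narrower in the gTKO list and 1 control-only peak.

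**Figure D3:**
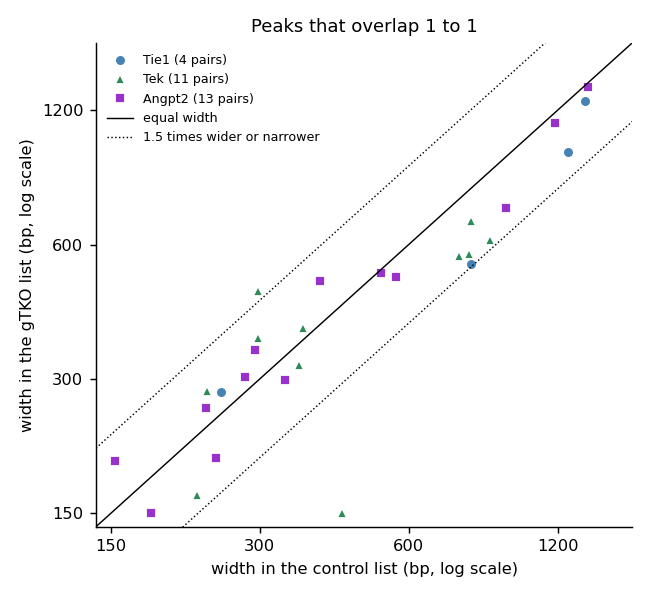
Width of each peak that overlapped 1 to 1, in the gTKO list (vertical axis) against the control list (horizontal axis), both in bp on log scales; the solid line marks equal width and the dotted lines a ratio of 1.5 either way. Of the 28 pairs, 18 lie below the line of equal width, and 1 pair lies beyond each dotted line.

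At the Angpt2 locus the gTKO list held the larger number of particular peaks. Of its 26 peaks, 9 had no control partner (34.6%, interval 17.2 to 55.7%), against 9.75% in the whole list. Of the 13 gTKO peaks of at least 300 bp 2 had no partner, and each of the 6 of at least 500 bp had one. In the whole gTKO list, 4.28% of peaks of 300 to 499 bp and 0.0936% of those of 500 bp or more had no partner. When peaks under 300 bp were removed from both lists, 4 gTKO peaks had no partner, of which 2 had lost a narrower one. Of the 18 control peaks, 2 had no gTKO partner (11.1%, interval 1.38 to 34.7%), against 27.0%. The width classes gave 3.07 gTKO-only and 5.13 control-only peaks. The interval of the gTKO-only share lay above the whole-list share, and that of the control-only share included it. These intervals treat neighbouring peaks as independent, and the window was chosen with earlier results of these data known.

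The gTKO-only peaks at Angpt2 were 150 to 441 bp wide. The widest were 441 bp at chr8:18714063-18714503, 329 bp at chr8:18646838-18647166 and 297 bp at chr8:18699120-18699416. The others were 292 bp (chr8:18694131-18694422), 183 bp (chr8:18713497-18713679), 180 bp (chr8:18694549-18694728), 171 bp (chr8:18749508-18749678), 153 bp (chr8:18720835-18720987) and 150 bp wide (chr8:18779352-18779501). Their median distance to the nearest control peak was 3.95 kb, and 1 of the 9 lay within 300 bp. In the whole gTKO list, 26.2% of peaks of 150 to 199 bp had no partner, 13.4% of those of 200 to 299 bp and 4.28% of those of 300 to 499 bp. These shares are over all gTKO peaks of a width class, not over gTKO-only peaks. In the Angpt2 window, 2 of the 13 gTKO peaks of at least 300 bp had no partner, both of 300 to 499 bp. The 13 include 6 peaks of 500 bp or more, so the share of 4.28% does not apply to all of them. The control-only peaks at Angpt2 were 247 bp wide (chr8:18689934-18690180), 27 bp from a gTKO peak, and 150 bp wide (chr8:18680377-18680526).

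Of the 9 gTKO-only peaks at Angpt2, 6 lay in one stretch that was picked by its values, and 3 lay elsewhere in the window. Peaks of both lists that overlapped were joined into sites, 26 at Angpt2, of which 15 had peaks in both lists. These 15 sites held less sequence in the gTKO list, 8133 bp against 8968 bp in the control list. The gTKO list had less sequence at 10 of them and more at 5. The longest run of neighbouring sites with more gTKO than control sequence spanned 8 sites and 26.9 kb, chr8:18694131-18720987. It held 8 gTKO peaks covering 2392 bp and 2 control peaks covering 692 bp, and 6 of the 9 gTKO-only peaks. Its 2 shared sites were wider in the gTKO list, with 497 bp in the gTKO list against 398 bp in the control list at chr8:18711634-18712031 and 349 bp in the gTKO list against 294 bp in the control list at chr8:18712634-18712927. In the rest of the window the gTKO list held 18 peaks covering 7937 bp and the control list 16 peaks covering 8673 bp. The stretch was found by its values, which also biases the remainder toward less gTKO sequence, so both are descriptions. A gTKO-only site has more gTKO sequence by definition and so always adds to such a run. At Tek the longest run of the opposite kind held 6 sites from chr4:94455659 to 94579852. It had 2 gTKO peaks covering 1189 bp and 6 control peaks covering 2342 bp. Runs of that kind reached 5 sites over 72.9 kb at Tie1 and 4 sites over 11.3 kb at Angpt2. Those with more gTKO sequence reached 2 sites at Tek and 1 at Tie1. No run lengths over the whole lists are given here, so these have no background.

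**Figure D4:**
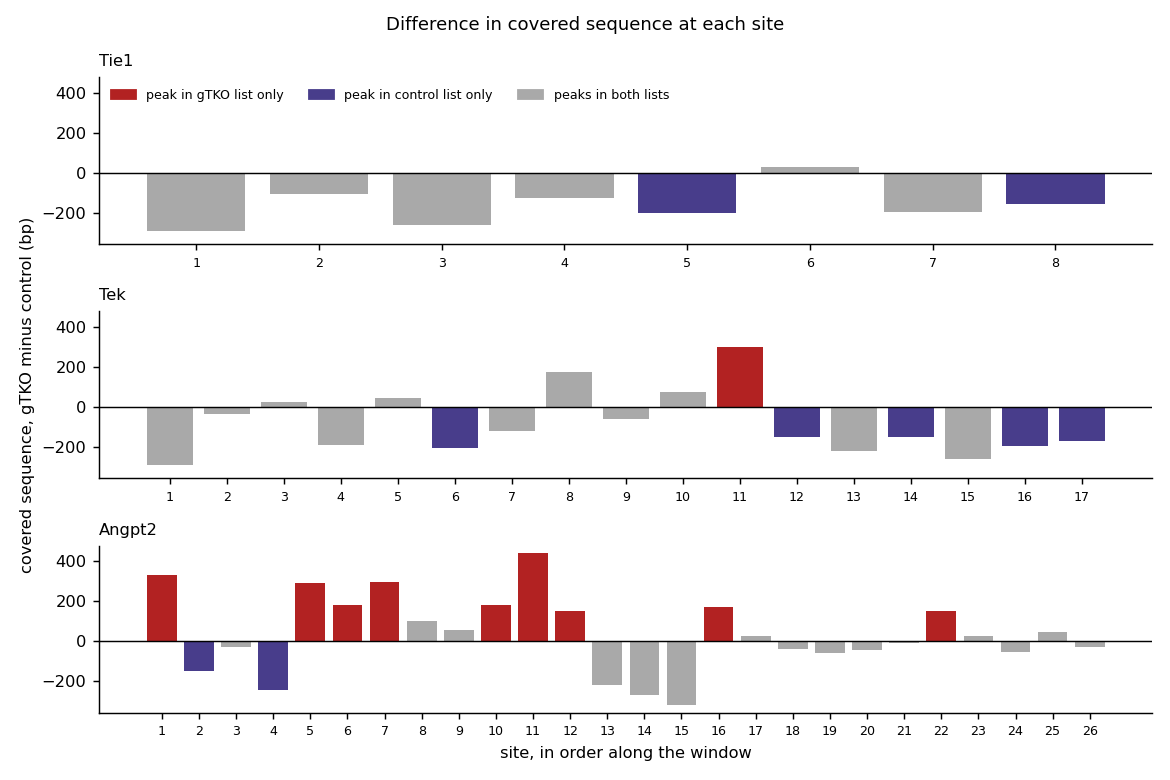
Covered sequence at each site, gTKO minus control in bp, in order along each window; red bars are sites with a peak in the gTKO list only, blue bars in the control list only and grey bars in both. At Angpt2 sites 5 to 12 are all above 0, and at Tie1 7 of 8 sites are below 0.

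The widest Angpt2 peaks were present in both lists. The widest control peak, 1515 bp at chr8:18740223-18741737, overlapped 3 gTKO peaks of 652, 151 and 442 bp, with gaps of 145 and 118 bp, which covered 82.0% of it. In turn, the gTKO peak at chr8:18747515-18747917 (403 bp) overlapped 2 control peaks, of 571 and 153 bp. At that site the gTKO list thus covered 403 bp and the control list 724 bp. At chr8:18845831-18847215 the width was 1353 bp in the gTKO list and 1385 bp in the control list, and at chr8:18767298-18768482 it was 1126 bp in the gTKO list and 1185 bp in the control list. These widths differed by 32 and 59 bp between the lists. Among peaks of the window that overlapped 1 to 1, the lowest ratio was 0.768, at chr8:18737789-18738731. The widths there were 724 bp in the gTKO list and 943 bp in the control list. Ratios of 0.816 and 0.829 followed, at chr8:18768802-18769046 (200 bp gTKO, 245 bp control) and chr8:18689732-18689912 (150 bp gTKO, 181 bp control). The highest ratio was 1.29, at chr8:18817857-18818009, with 197 bp in the gTKO list and 153 bp in the control list.

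Widths within 1 to 1 pairs, which leave out split peaks, were mostly lower in the gTKO list at all 3 loci, by little at Angpt2. The gTKO peak was narrower in 3 of 4 pairs at Tie1, 7 of 11 at Tek and 8 of 13 at Angpt2, together 18 of 28 (64.3%, interval 44.1 to 81.4%), against 79.5% of all 37878 pairs. The median ratio of gTKO over control width was 0.844 at Tie1, 0.847 at Tek and 0.977 at Angpt2, against 0.866 in the whole lists. A ratio of at least 1.5 either way was called a width change. By this rule 1 of the 28 pairs was narrower in the gTKO list, against 17.3% of all pairs, and 1 was wider, against 2.55%, both at Tek. Both ends of the gTKO peak lay further in for 14 of 28 pairs and further out for 7, and in 7 pairs one end lay further in and the other further out. The ends were not counted over all pairs, so these numbers have no background and only describe the 28 pairs. Of the 42 control peaks 3 overlapped 2 or more gTKO peaks, against 5.28% of all control peaks, and of the 46 gTKO peaks 1 overlapped 2 control peaks, against 1.07%. No stretch of 5 or more peaks, each within 3 kb of the next, lay in any window in either list.

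**Figure D5:**
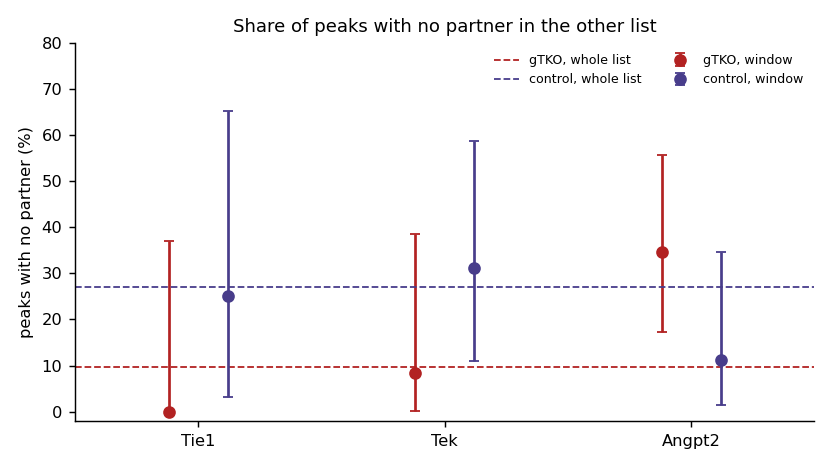
Share of peaks with no partner in the other list, in %, per window (points, gTKO in red left of control in blue, with exact 95% Clopper-Pearson intervals) and in the whole list (dashed lines at 9.75% for gTKO and 27.0% for control). The gTKO interval at Angpt2 lies above its dashed line, and the other 5 intervals include theirs.

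The surroundings of the windows were compared in the same way. In the 500 kb on either side of the Angpt2 window the gTKO list held 8 peaks, of which 0 were gTKO-only, compatible with shares up to 36.9% by the exact interval and 37.5% by a floor of 3 counts, and the control list 9, of which 1 was control-only. In both lists the window thus held more peaks than these surroundings. The peaks did not stop at its ends: extended by 50 kb on both sides, it held 31 gTKO and 23 control peaks. Around Tie1 the numbers were 2 of 25 gTKO peaks and 12 of 32 control peaks (37.5%, interval 21.1 to 56.3%), and around Tek 3 of 28 gTKO peaks (10.7%) and 9 of 32 control peaks (28.1%). The nearest peaks below the Angpt2 window were at chr8:18619142-18619441 (300 bp) in the gTKO list and at chr8:18619181-18619375 (195 bp) in the control list. Above it they were at chr8:18890918-18891138 in the gTKO list and at chr8:18890918-18891153 in the control list. Below the Tek window the nearest control peak, of 160 bp, lay at chr4:94336493-94336652, while the nearest gTKO peak lay 58.7 kb outside, and above it both lists had a peak 55.7 kb outside. Tie1 had neighbours 8.11 kb (gTKO) and 8.04 kb (control) below its window, and 73.4 kb (gTKO) and 19.1 kb (control) above it.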

How the data were processed

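ATAC-seq peak positions of retinal endothelial cells were analysed in 2 lists deposited by the authors, 1 for 3 gTKO and 1 for 3 control libraries. Per the submitters' processing notes the build is mm9, and the tools named include Bowtie2, Picard, MACS2 and bedtools. The calling threshold, read filters and any pooling of reads were not given in the sources used here. The 16 RNA-seq libraries were not analysed here. Peaks on unplaced sequences (620 gTKO, 1044 control) were left out, and positions are written 1-based. Windows, members and lists were chosen with earlier results of these data known. Named by rule were, per locus, the 5 widest control peaks, the 3 widest one-list peaks of each list, split peaks, pairs with the 3 lowest and 3 highest width ratios, and the nearest outside peaks; further one-list peaks were named after their values were seen. Comparisons with stretches of window size, runs of sites and width classes were also added after seeing the data. The overlap rules were tested on simulated lists. Python 3.11.15, numpy 2.4.6, scipy 1.17.1 and matplotlib 3.10.9 were used. Other genes of the pathway were not described, since peaks could not be tied to genes.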

Additional observations from a re-analysis of the deposited data

How the results depend on the processing

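Each of 18 values was recomputed under the alternatives that apply to it, 93 values in all, of which 70 stayed within 1.5 times of the reported one. One turned direction: with peaks of at least 300 bp in both lists, Tek had 9 gTKO and 7 control peaks, a ratio of 1.29 against 0.750, as 9 of 16 control and 3 of 12 gTKO peaks are narrower than that. With that limit, gTKO-only peaks numbered 3 at Tek and 4 at Angpt2, and control-only peaks 1 at each locus, including peaks whose partner was narrower. Requiring 50% of both peaks to be covered gave 3 gTKO-only peaks (and 3 control-only) at Tie1, 2 at Tek, and 4 control-only peaks at Angpt2. Counting a gap of up to 100 bp as shared left 1 control-only peak at Angpt2. With the widest control peaks, as many as in the gTKO list, control-only peaks numbered 1 at Tie1, 2 at Tek and 1 at Angpt2. Windows extended by 50 kb gave 4 control-only peaks at Tie1, and windows cut by 25 kb gave 1. A width ratio of at least 5 to 4 gave 2 narrower pairs at Tie1, 5 at Tek and 1 at Angpt2, and 1 wider pair at Angpt2. A ratio of 2 left 0 wider pairs at Tek, and pairs of at least 300 bp left 0 narrower and 0 wider there. Setting control peaks against the sum of their gTKO partners gave 1 wider at Angpt2, the control peak of 153 bp at chr8:18747886-18748038. Its gTKO partner of 403 bp also overlapped a control peak of 571 bp. The joined site held less sequence in the gTKO list, 403 bp against 724 bp in the control list. At Angpt2 the gTKO list held more peaks and more sequence under every alternative run. Ratios were 1.35 to 1.73 for peaks and 1.03 to 1.16 for sequence, and gTKO-only peaks numbered 4 to 12. The highest ratios, 1.73 and 1.16, came with the control list cut to its widest peaks. That cut removes control peaks only, so it can only raise these ratios. Windows extended, cut or taken by any overlap shared most of their peaks with the main setting. No paired analysis was possible because the lists hold no values per library, and no replicate could be left out. The read depth is unknown, and its part in these values was not tested.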
